A study of Homo sapiens with 4 samples.

Results

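The clustered protocadherin genes were described by their acetylation of histone H3 on lysine 27 (H3K27ac), a histone mark of active promoters and enhancers, in 2 triple-negative breast cancer cell lines. The members were all GENCODE protein-coding genes on chromosome 5 whose symbol starts with PCDHA, PCDHB or PCDHG, and the rule found 53 of the 19970 protein-coding genes on chromosomes 1 to 22 and X. Nearly all of them lacked the mark at the start site. In the 3 lists of normal size, 4, 2 and 3 of the 53 start sites had a peak within 1 kb, whereas 56.4 to 58.2% of all protein-coding start sites were marked in the same lists. PCDHGB1 and PCDHGB2 were marked in all 3 of these lists and in both lines, PCDHB13 in 1 list of each line, PCDHB9 in 1 MDA-MB-231 list, and no PCDHA, PCDHGA or C-type gene in any list.

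Chromatin immunoprecipitation followed by sequencing was carried out on MDA-MB-231 and Hs578T, established mesenchymal-like lines, with 2 replicates each. Per the labels, every library came from cells that had been starved of serum, given 10 ng/ml of TWEAK, a cytokine of the TNF family, for 48 h, and washed free of it for 72 h before fixation. A longer wash is described in the study's own text, and which of the durations holds is unknown. All groups thus share the TWEAK exposure, and its effect could not be examined without libraries of unexposed cells, which were not used here. Start sites of 5 chosen mesenchymal markers (VIM, CD44, AXL, ZEB1 and FOSL1) were marked in all 3 large lists, as were 55.6% of all protein-coding start sites. Not every gene linked to mesenchymal cells was marked: CDH2 was unmarked in every list, and CDH11 was marked in the Hs578T lists alone. ESR1, PGR, GATA3 and FOXA1, which mark luminal breast cells, were unmarked in every list. EPCAM was marked in MDA-MB-231 replicate 2 and Hs578T replicate 1.

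The deposited lists held 43353 peaks in MDA-MB-231 replicate 2, 46330 in Hs578T replicate 1 and 44920 in Hs578T replicate 2, but 209 in MDA-MB-231 replicate 1. This short list stood apart from the others, and it marked 12 of all start sites, or 0.0601%, and no member. Depth was not known for any library, so absence from a list is absence of a called peak. The 3 longer lists are called the large lists, and MDA-MB-231 values are given with and without the short one.

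Clustered protocadherins are cell-surface proteins of the cadherin superfamily, best known in neurons, where each cell uses a small and partly random choice of them as an identity label for contacts between neurites. In the alpha and gamma clusters, each gene has its own first, variable exon with its own promoter, and that exon is spliced to constant exons shared by the whole cluster, which encode the common part of the cytoplasmic tail. Beta genes lack constant exons. Choice of a promoter involves DNA methylation and looping between the promoters and distant enhancers by CTCF and cohesin. The C-type genes, at the ends of the alpha and gamma clusters, are known to be used more uniformly between neurons.

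The annotation showed this arrangement on hg38. The 53 genes lay on the plus strand over 726.842 kb, at chr5:140786136-141512977. There were 13 PCDHA, 16 PCDHB, 12 PCDHGA and 7 PCDHGB genes, and 5 C-type genes (PCDHAC1, PCDHAC2, PCDHGC3, PCDHGC4 and PCDHGC5). Canonical transcripts of all 15 genes of the alpha cluster shared 3 exons, as did those of all 22 genes of the gamma cluster, and all 16 PCDHB genes had a single exon. Neighbouring start sites were 3374 to 85119 bp apart, with a median of 6349 bp, so a window of 1 kb on either side of one did not reach the next.

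Promoters of the 4 marked genes are shown because the mark was found there, next to 3 unmarked ones: PCDHGA4, which lies between PCDHGB1 and PCDHGB2, PCDHB8, whose sequence resembles that of PCDHB13, and PCDHA1, the first gene of the alpha cluster. Each runs from 250 bases before to 50 bases after the RefSeq start site on GRCh38.p14, on the plus strand. Capitals mark each CGCTG, the heart of a sequence element found in most members. Its second copy in PCDHGB1, 34 bases after the start, is not at the usual place before the start.
PCDHGB1: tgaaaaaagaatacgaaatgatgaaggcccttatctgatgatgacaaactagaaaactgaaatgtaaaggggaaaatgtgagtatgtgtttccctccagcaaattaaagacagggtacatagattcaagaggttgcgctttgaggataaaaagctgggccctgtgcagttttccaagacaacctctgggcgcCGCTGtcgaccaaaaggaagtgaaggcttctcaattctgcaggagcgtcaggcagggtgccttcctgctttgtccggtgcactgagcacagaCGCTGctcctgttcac
PCDHGB2: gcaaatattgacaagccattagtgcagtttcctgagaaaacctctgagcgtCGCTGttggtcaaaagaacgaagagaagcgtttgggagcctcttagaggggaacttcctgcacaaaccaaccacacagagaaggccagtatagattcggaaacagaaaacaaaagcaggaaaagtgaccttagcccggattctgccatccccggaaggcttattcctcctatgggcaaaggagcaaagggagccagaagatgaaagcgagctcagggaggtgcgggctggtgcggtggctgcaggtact
PCDHGA4: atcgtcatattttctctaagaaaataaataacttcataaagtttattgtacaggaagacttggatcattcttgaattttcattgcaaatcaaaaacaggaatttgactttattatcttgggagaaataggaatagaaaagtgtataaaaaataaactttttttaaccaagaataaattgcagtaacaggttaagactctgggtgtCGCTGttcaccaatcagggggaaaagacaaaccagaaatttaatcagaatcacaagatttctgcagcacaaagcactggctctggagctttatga
PCDHB9: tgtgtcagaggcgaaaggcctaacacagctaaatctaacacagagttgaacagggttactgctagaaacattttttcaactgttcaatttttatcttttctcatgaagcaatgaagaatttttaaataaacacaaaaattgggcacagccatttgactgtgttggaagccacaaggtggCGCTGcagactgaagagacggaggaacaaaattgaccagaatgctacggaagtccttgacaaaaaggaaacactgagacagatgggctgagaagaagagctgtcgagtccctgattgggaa
PCDHB13: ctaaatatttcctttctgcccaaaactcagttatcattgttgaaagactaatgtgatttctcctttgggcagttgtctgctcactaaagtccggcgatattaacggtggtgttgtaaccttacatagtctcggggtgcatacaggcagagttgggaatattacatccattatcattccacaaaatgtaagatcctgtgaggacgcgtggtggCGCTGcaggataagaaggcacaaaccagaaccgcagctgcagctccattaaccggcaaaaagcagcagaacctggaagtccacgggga
PCDHB8: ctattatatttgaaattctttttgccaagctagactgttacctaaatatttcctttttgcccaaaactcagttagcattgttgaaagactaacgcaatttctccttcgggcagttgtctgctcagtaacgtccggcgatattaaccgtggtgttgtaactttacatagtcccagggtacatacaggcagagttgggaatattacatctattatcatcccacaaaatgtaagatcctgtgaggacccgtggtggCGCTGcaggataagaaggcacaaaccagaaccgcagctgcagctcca
PCDHA1: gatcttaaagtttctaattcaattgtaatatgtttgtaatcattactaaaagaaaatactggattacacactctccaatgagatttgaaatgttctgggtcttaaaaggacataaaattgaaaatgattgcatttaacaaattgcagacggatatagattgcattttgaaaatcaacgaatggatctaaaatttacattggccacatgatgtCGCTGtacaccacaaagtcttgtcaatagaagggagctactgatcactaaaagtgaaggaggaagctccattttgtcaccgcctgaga
They lie, in the same order, at chr5:141349849-141350148, chr5:141359886-141360185, chr5:141354771-141355070, chr5:141186911-141187210, chr5:141213669-141213968, chr5:141177540-141177839 and chr5:140785890-140786189. RefSeq places the start of PCDHGB2 142 bp downstream of the canonical GENCODE start, which is the one used for the peaks.

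Counts of marked start sites were far below the background in every large list. MDA-MB-231 replicate 2 marked 4 of 53 members (7.55%, 95% Wilson interval 2.97 to 17.9%), against 58.1% of all protein-coding genes. Hs578T replicate 1 marked 2 (3.77%, 1.04 to 12.8%), against 58.2%, and Hs578T replicate 2 marked 3 (5.66%, 1.94 to 15.4%), against 56.4%. Both members marked in Hs578T replicate 1, PCDHGB1 and PCDHGB2, were also the 2 marked in all 3 large lists, where the background was 55.6%. These intervals cover counting error and treat neighbouring genes as independent, which they are not. Per line, the mean was 2.0 ± 2.83 marked members in MDA-MB-231 and 2.5 ± 0.707 in Hs578T (SD, n = 2). The spread in MDA-MB-231 is set by the short list, so these means allow no comparison of the lines. Without the short list, MDA-MB-231 had 4 marked members from a single library. Among the strongest 50% of the peaks of that library by score, 1 remained marked, PCDHGB2, and the same setting left PCDHGB1 and PCDHGB2 marked in each Hs578T list, so that PCDHB13 was marked in none.

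**Figure D1:**
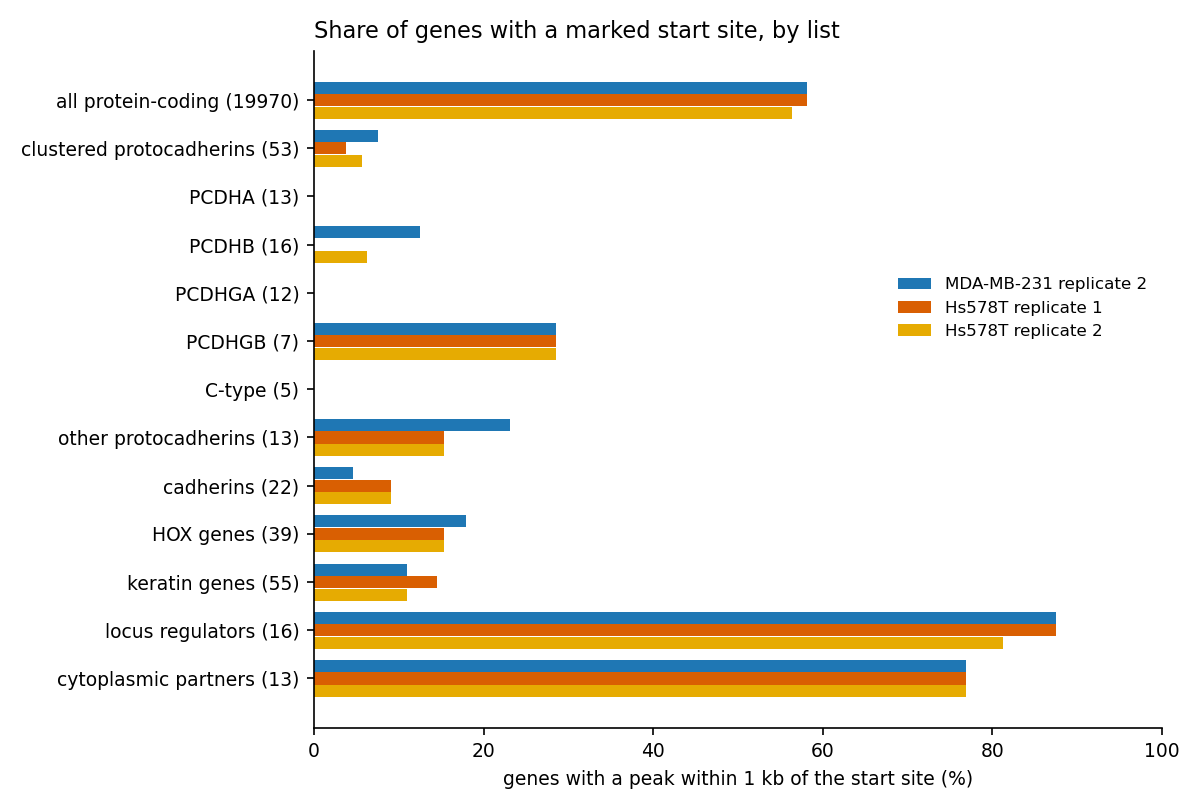
Percentage of genes with a peak within 1 kb of the start site (horizontal axis) in the 3 large lists (colours), for all protein-coding genes, for the clustered protocadherins and their subfamilies, and for comparison lists, with the number of genes in parentheses. The clustered protocadherins reach 7.55% at most, and PCDHGB is the subfamily with the longest bars, at 28.6%, from 2 of 7 genes.

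By subfamily, the mark was found in PCDHB and PCDHGB alone among these lists. None of the 13 PCDHA genes was marked (Wilson upper bound 22.8%), nor any of the 12 PCDHGA genes (24.2%) or the 5 C-type genes (43.4%). PCDHGB had 2 of 7 marked in each large list (28.6%, 8.22 to 64.1%), and PCDHB had 2, 0 and 1 of 16. With so few genes in each subfamily, the intervals overlap between all 5. They treat neighbouring genes as independent, so this overlap is not a comparison of the subfamilies.

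PCDHGB2, a gene of the gamma-B subfamily, had the strongest of the member peaks in each large list. Its fold enrichment over the local background was 9.34 in MDA-MB-231 replicate 2, 8.37 in Hs578T replicate 1 and 8.09 in Hs578T replicate 2, with −log10 q-values of 23.3, 24.8 and 17.2. Within each list this was a middling promoter: 51.3, 52.0 and 61.6% of all marked genes had a lower fold enrichment. The peaks were narrow, at 844, 1065 and 766 bp, where the median width over marked genes was 1792, 1897 and 1804 bp. They began 98, 182 and 84 bp before the start site and ended 745, 882 and 681 bp beyond it. These peaks also lay in introns of PCDHGA1, PCDHGA2, PCDHGA3, PCDHGA4 and PCDHGB1, whose transcripts run through this gene. Place alone does not tell these genes apart.

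PCDHGB1, the gamma-B gene before it, was weaker than PCDHGB2 in each list, and in MDA-MB-231 its fold enrichment was no higher than that of PCDHB13. Its fold enrichment was 4.39, 6.42 and 6.96 in the same order of lists, with −log10 q-values of 6.77, 12.8 and 11.6, and 10.5, 34.9 and 50.9% of marked genes had a lower fold. Rank within the list was lowest in MDA-MB-231 and differed between the Hs578T replicates as well. The peaks, of 545, 575 and 666 bp, began only 5, 42 and 11 bp before the start site. They lay within 1 kb of the start of a long non-coding RNA on the other strand, ENSG00000280026, which the Hs578T replicate 2 peak alone of the 3 covered, and in introns of PCDHGA1, PCDHGA2 and PCDHGA3, whose transcripts run through this gene. Peaks carry no strand, so the genes cannot be told apart here.

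At both gamma-B genes the peaks spanned the start site, but most of their length lay over the variable exon. Between 92.7 and 99.1% of the PCDHGB1 peak, and between 82.9 and 89.0% of the PCDHGB2 peak, lay downstream of the start, inside the first exon of each gene, of which the peaks covered 20.7 to 25.5% and 26.6 to 34.5%. Over all marked genes the median share downstream was 54.6, 54.4 and 54.2%. All these shares use the GENCODE start. The RefSeq start of PCDHGB2 lies 142 bp further downstream, and the share of its peaks beyond that start is lower. PCDHGA4, the unmarked gene between PCDHGB1 and PCDHGB2, was 4383, 4390 and 4268 bp from the nearest peak.

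**Figure D2:**
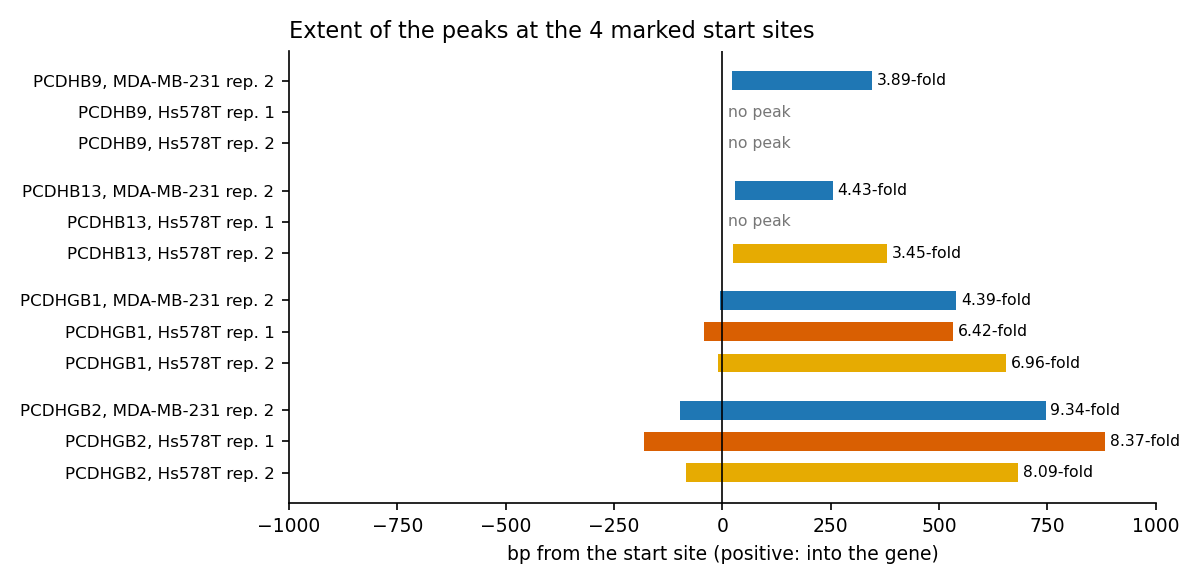
Extent of each peak at the 4 marked start sites, in bp from the start site (horizontal axis; positive values lie in the gene), with 1 bar per gene and large list, coloured by list and labelled with its fold enrichment. Bars extend to the right of the start site, and those of PCDHB9 and PCDHB13 begin 22 to 28 bp beyond it.

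PCDHB13 and PCDHB9, single-exon genes of the beta cluster, were marked by weak peaks. PCDHB13 had a peak of 227 bp and 4.43-fold enrichment in MDA-MB-231 replicate 2 and of 354 bp and 3.45-fold in Hs578T replicate 2, and none in Hs578T replicate 1. PCDHB9 had a peak of 324 bp and 3.89-fold enrichment in MDA-MB-231 replicate 2 and none in either Hs578T list. These were among the weakest promoter peaks of their lists: 10.8, 8.19 and 6.41% of marked genes had a lower fold, in the order given. All 3 peaks lay wholly within the gene, from 22 to 28 bp after the start onwards.

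Sequence copies limit what the beta peaks can say about a single gene. Within 1 kb of the start site, 755 of the 1952 words of 50 bases (38.7%) in PCDHB13 occurred elsewhere in hg38, and all 755 were shared with PCDHB8. PCDHB9 shared 324 words (16.6%) with PCDHB10. Inside the peaks themselves, 43.8 and 67.2% of the words were repeated for PCDHB13 and 28.7% for PCDHB9, whereas no word was repeated in any peak of PCDHGB1 or PCDHGB2. Whether reads from PCDHB8 or PCDHB10 contributed was not tested, since the handling of reads with several matches is not given in the sources used here. PCDHB8 and PCDHB10 themselves had no peak within 1 kb in any list. Repeated words also lay around other unmarked members, with 29.2% for PCDHA9, 26.5% for PCDHA7 and 24.4% for PCDHGB4 and PCDHGB5. Other unmarked members, such as PCDHB1, had 0%. Whether repeats kept peaks from being called at these genes was not tested.

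Distances to the nearest peak gave the same picture for the unmarked members. The median member start site was 37.2, 65.1 and 36.2 kb from a peak in the large lists, and 8, 5 and 6 of 53 were within 5 kb. Over all protein-coding genes, 62.8, 63.2 and 61.4% were within 5 kb. Unmarked members within that distance were PCDHB16 (4796 bp) and PCDHB10 (4847 bp) in MDA-MB-231 replicate 2, PCDHGA1 in both Hs578T lists (3911 and 4038 bp), and PCDHGA4 and PCDHGA5 in all 3, the latter at 3423, 3286 and 3487 bp. PCDHGA1, PCDHGA4 and PCDHGA5, genes of the gamma-A subfamily, lay beside the marked gamma-B genes or, for PCDHGA1, beside a marked long non-coding RNA.

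The remotest genes were those of the alpha cluster. Taking for each gene its smallest distance over the large lists, PCDHA13, PCDHA12 and PCDHA11 were 158626, 154755 and 148404 bp from a peak. All 13 PCDHA genes were at least 65587 bp away. Among the C-type genes, PCDHAC1 and PCDHAC2, at the end of the alpha cluster, were at 114451 and 74274 bp and PCDHGC3 at 32659 bp. In the gamma cluster the distances grew away from PCDHGB2, to 69631, 60175 and 52111 bp for PCDHGA12, PCDHGA11 and PCDHGA10 and to 56801, 47145 and 37071 bp for PCDHGB7, PCDHGB6 and PCDHGB5. In the beta cluster PCDHB5 was farthest at 50162 bp, before PCDHB6 at 37126 bp and PCDHB4 at 36774 bp. The large lists gave nearly equal distances over the PCDHA and gamma genes other than PCDHGA1. They differed over PCDHAC1, PCDHAC2 and the beta genes, around which the lists differed in the weak peaks they held. In Hs578T replicate 1 the nearest peak to PCDHB12, PCDHB13, PCDHB14 and PCDHB15 was a strong one at TAF7, before the gamma cluster. The PCDHB median was 13.3 kb in MDA-MB-231 replicate 2, 90.3 kb in Hs578T replicate 1 and 24.2 kb in Hs578T replicate 2.

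**Figure D3:**
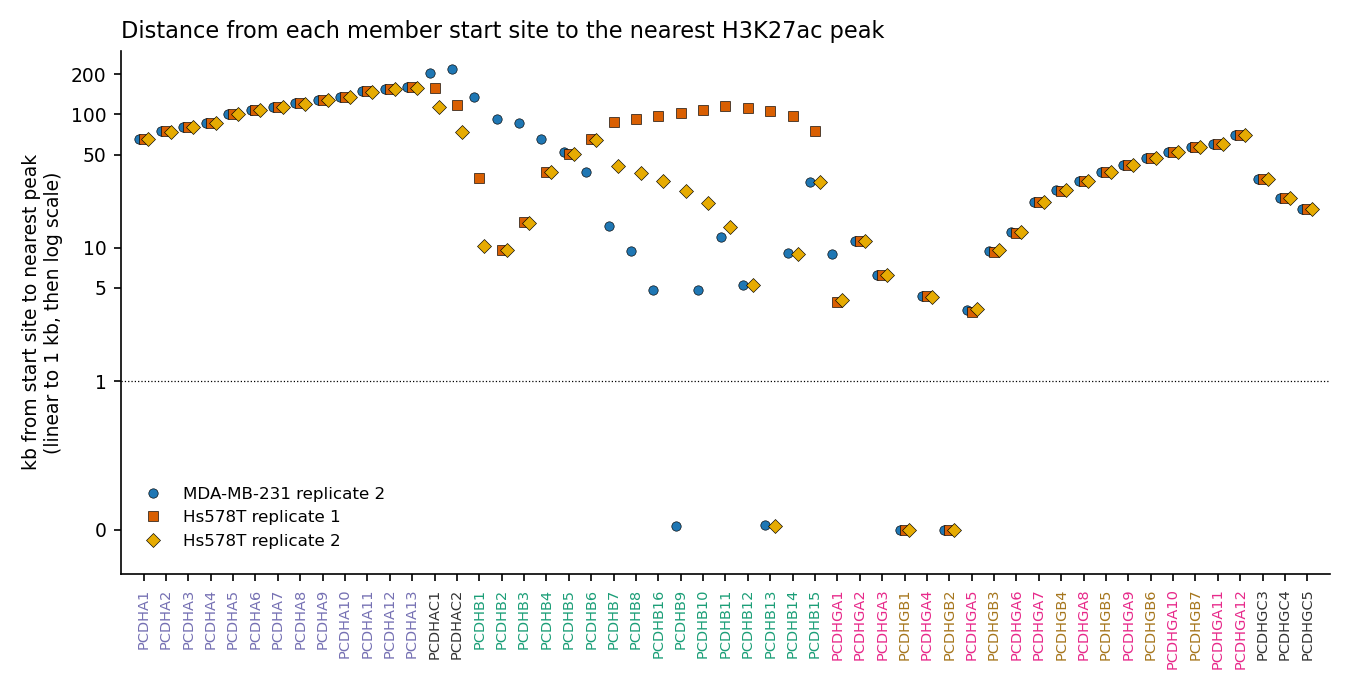
Distance in kb from each of the 53 start sites to the nearest peak (vertical axis, linear up to 1 kb and logarithmic above; dotted line at 1 kb), with genes in genomic order along the horizontal axis, coloured by subfamily, and 1 point per large list. Points of the 3 lists lie together over the PCDHA genes and, apart from PCDHGA1, the gamma genes, and spread apart over PCDHAC1, PCDHAC2 and PCDHB, and 4 genes lie below the line.

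Over the whole locus with 50 kb on either side (826.842 kb), 0, 9, 9 and 11 peaks were called in MDA-MB-231 replicates 1 and 2 and Hs578T replicates 1 and 2. The mean was 4.5 ± 6.36 peaks in MDA-MB-231 and 10.0 ± 1.41 in Hs578T (SD, n = 2), where the short list again sets the MDA-MB-231 spread. Without the short list, MDA-MB-231 had 9. The large lists held 10.9, 10.9 and 13.3 peaks per Mb of the span. On chromosomes 1 to 22 and X they held 14.3, 15.3 and 14.8 peaks per Mb. Peaks covered 14530, 15960 and 15479 bp in the large lists, or 1.76, 1.93 and 1.87% of the span, against 2.70, 2.99 and 2.77% of chromosomes 1 to 22 and X. Most of this came from the flank: 9771, 10639 and 9720 bp lay in the 50 kb beyond the last gamma gene. Without flanks, 6, 6 and 8 peaks covered 0.655, 0.732 and 0.792% of the locus. On chromosome 5 as a whole 2.49, 2.80 and 2.62% was covered.

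The alpha cluster, of 226.212 kb, held no peak in any list. It lay in a stretch without peaks that ran from the peak ending at chr5:140720289 in MDA-MB-231 replicate 2 to the PCDHB9 peak, 466.893 kb away, and took in 25 member start sites, counting that of PCDHB9 itself, which lies just before its peak. In the Hs578T lists the stretch was 364.252 and 320.196 kb long, with 16 and 15 member start sites, and no other protein-coding gene started in it in any large list. The median gap between peaks was 18.1, 16.8 and 17.2 kb. Longer gaps were not rare, with 919, 1220 and 1436 gaps of at least this length, but few held as many genes: 7 of 43330 gaps had 25 or more protein-coding start sites in MDA-MB-231 replicate 2, 27 of 46307 had 16 or more in Hs578T replicate 1, and 28 of 44897 had 15 or more in Hs578T replicate 2, the alpha stretch itself and, in MDA-MB-231, the marked PCDHB9 included.

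Merged across lists, the peaks formed 12 regions, of which 9 lay inside the locus and 3 in the flank behind the gamma cluster. Of the 9, 4 were at member start sites. Another 3 were at starts of other genes. TAF7, which encodes a subunit of the general transcription factor TFIID and lies between the beta and gamma clusters, had the strongest of them, with 14.4-, 16.0- and 12.4-fold enrichment over 1625, 1847 and 1812 bp. The long non-coding RNA ENSG00000272070 was marked in both Hs578T lists, at 3.19- and 3.67-fold, and ENSG00000288892, between the alpha and beta clusters, in Hs578T replicate 2 at 2.66-fold. The peak at ENSG00000288892 was among the weakest of its list, with 0.752% of peaks having a lower −log10 q-value. SLC25A2, a mitochondrial ornithine carrier gene, and ENSG00000279983, the other protein-coding genes in the span, were unmarked.

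A pair of regions lay away from any start site. One, at chr5:141084632-141085044 between PCDHB1 and PCDHB2, was called in both Hs578T lists at 3.74- and 3.40-fold and not in MDA-MB-231. The other was in the last part of the gamma cluster, in the intron before the last constant exon, which belongs to all 22 gamma genes. It was called in the 3 large lists at 5.79-, 5.52- and 5.76-fold enrichment and 1194, 1199 and 1214 bp, within chr5:141508625-141509876, and no base of it lay in a constant exon. It ended 1070, 1086 and 1108 bp before the last constant exon. Its G+C content was 57.4, 57.4 and 57.5%, and its CpG ratio was 0.296, 0.295 and 0.30, against CpG ratios of 0.629, 0.643 and 0.632 in the PCDHGB2 peaks. The CpG ratio is the observed number of CG pairs over that expected from the base content.

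Beyond the gamma cluster the mark was dense again. The 3 flank regions lay over DIAPH1, a formin gene on the minus strand, and were called in all 3 large lists. The last of them was also at the start of a long non-coding RNA, DIAPH1-AS1, with 9.15-, 7.68- and 7.68-fold enrichment. The first, within chr5:141518905-141523544, had 18.0-, 19.2- and 15.6-fold enrichment, above every peak inside the locus in the same list. The flank was covered by peaks over 19.5, 21.3 and 19.4% of its length, and the 50 kb before PCDHA1 had none.

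**Figure D4:**
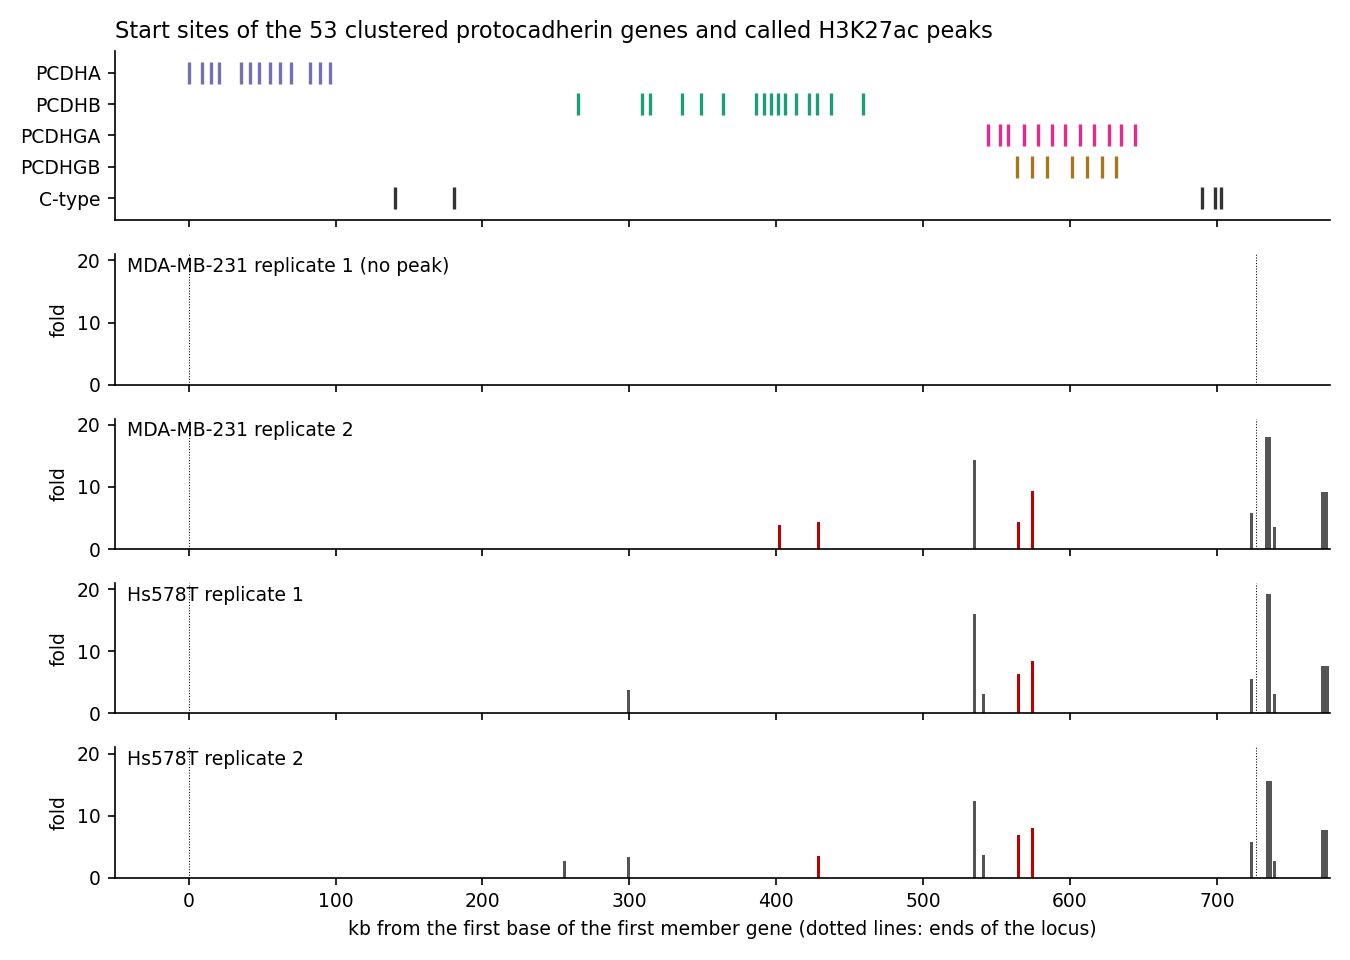
Start sites of the 53 genes by subfamily (top) and the called peaks of the 4 lists (lower panels), in kb from the first base of the locus, with bar height giving fold enrichment and peaks under 2 kb drawn 2 kb wide. Red bars overlap the window of a member start site and grey bars do not; the alpha genes, on the left, have no bar, and the tallest bars stand at TAF7 and beyond the right end of the locus.

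Promoter sequence was compared for the 47 of 53 members with a RefSeq entry and for 15315 protein-coding genes; PCDHA3, PCDHA13, PCDHB6, PCDHB11, PCDHGA12 and PCDHGC5 were not matched. Member promoters had a low G+C content, with a median of 39.7% against 63.7%, and had a median CpG ratio of 0.593 against 0.783. The C-type promoters, at 61.8%, were close to the median of all genes, and PCDHGB was the richest of the other subfamilies at 48.3%, with PCDHA at 36.0%, PCDHGA at 38.3% and PCDHB at 40.8%. The 4 marked members had 42.0 to 51.3% and CpG ratios of 0.388 to 0.622, within the range of the 43 unmarked ones (32.3 to 66.0% and 0.257 to 1.07). Their medians were 46.8% and 0.499, against 38.7% and 0.635 in the unmarked ones, a difference that was not tested. The 51.3% is PCDHGB2, measured around its RefSeq start.

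A promoter with a CpG ratio of at least 0.6 was marked in all 3 large lists in 75.7% of all genes, but in 0 of 23 members. Below 0.6 the figure was 19.8% of all genes and 2 of 24 members, PCDHGB1 and PCDHGB2. Members and all genes also differed in G+C content, and the part of either measure in the count of marked members was not tested. Most of each member peak lay in the 1 kb downstream of the start site. There members had a median CpG ratio of 0.691, against 0.637 in all genes, and 50.7% G+C against 58.0%. PCDHB9, at 0.263, had the lowest of the 53 members there, PCDHGB1 had 0.660 and PCDHGB2 0.648, and PCDHA, with no marked gene, had the highest subfamily median, 0.780.

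**Figure D5:**
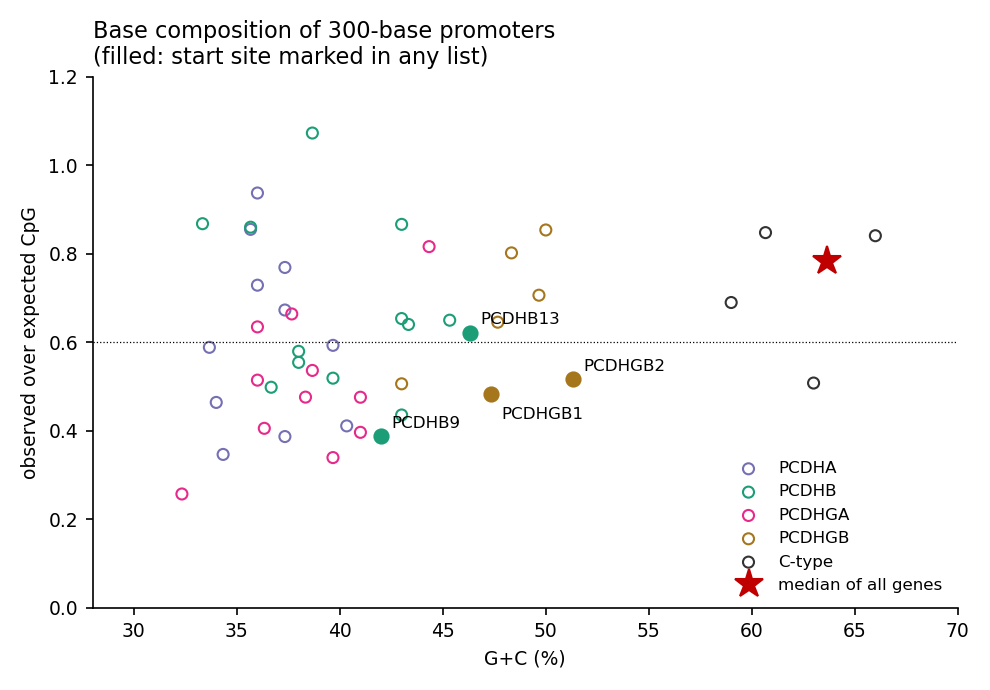
G+C percentage (horizontal axis) and observed over expected CpG (vertical axis) of the RefSeq promoters of 47 members, coloured by subfamily, with the 4 members marked in any list filled and named, and the median of 15315 genes as a star. Most members lie far to the left of the star, the C-type genes beside it, and the dotted line is the ratio of 0.6.

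The promoters shared short words near the start site. CGCTG, on the gene's strand within the 100 bases before the start, was found in 38 of 47 members (80.9%) and in 16.1% of all promoters. Over the whole printed stretch and both strands it was in 41 members (87.2%) and 60.2% of all promoters, and it was chosen after the sequences had been read. CGCT, which is part of it, was in 46 members and 82.9% of all. Among the most shared words of 8 letters, GTGGCGCT (AGCGCCAC on the other strand) was in 13 of 14 PCDHB promoters and in no other member. It was in 1.57% of all promoters. Among the words most shared by the alpha promoters, ATGTCGCT was in 9 of 13, against 0.189%, counted on the gene's strand. Both contain CGCT. On the gene's strand, GGTGGCGC was in as many PCDHB promoters and GATGTCGC in as many alpha promoters. These words overlap the first ones and do not contain CGCT. In the gamma promoters GCCGCTGT was in 11 of 20, against 1.2%, on the same strand.

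Marked and unmarked members did not separate by these words: all 7 PCDHGB and all 11 PCDHGA promoters held CGCTG. The TATA word, TATAAA, was in 6 members (12.8%) and 9.42% of all promoters. Of 4 short forms of the CTCF core searched on both strands, AGGGGGC was in 0 members against 18.7% of all promoters, and each of the others in 2 members. These were AGATGGC (6.27% of all promoters), then AGAGGGC (9.84%) and lastly AGGTGGC (7.34%). At least 1 of the 4 was in 5 members (10.6%) and 36.2% of all promoters, counted without regard to overlap between them. Among the marked genes AGGTGGC was found in PCDHB9, where its last letter is the first of CGCTG. A match describes the letters in this window and not a bound site. The 4 words cover only some spellings of the core, so a promoter without them may still hold a CTCF site. Whether members hold fewer such sites than other promoters was not tested.

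Genes related to the clustered protocadherins by family were also mostly unmarked. Of 13 non-clustered protocadherins, which have their own loci, 2 were marked in all 3 large lists: PCDH7, at 7.20-, 8.54- and 6.24-fold, and PCDH9, at 7.91-, 7.64- and 6.31-fold. PCDH20 was marked in MDA-MB-231 replicate 2 at 4.18-fold. Of 22 cadherins from CDH1 to CDH24, CDH4 was marked in the 3 lists and CDH11, a mesenchymal cadherin, in both Hs578T lists at 2.97- and 3.03-fold, while CDH1 and CDH2, epithelial and neural cadherin, were unmarked. Other clustered families were low as well, with 6 of 39 HOX genes and 5 of 55 keratin genes marked in all 3 lists. These lists are read against the same 55.6% and say nothing particular to the protocadherins.

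Of 16 genes for chromatin looping, DNA methylation and silencing of the locus, 13 were marked in all 3 large lists, and of 13 genes for cytoplasmic partners of its products 10 were. Over all protein-coding genes the share was 55.6%, and 75.7% where the promoter had a CpG ratio of at least 0.6, so nothing is read from these counts. CTCF, which binds the promoters and enhancers of the clusters, had 18.1-, 16.6- and 11-fold enrichment, RAD21, a cohesin subunit, had 18.9-, 17.6- and 12.5-fold, and SMCHD1, a silencing factor of the clusters, had 10.5-, 8.51- and 6.62-fold. DNMT3A, a DNA methyltransferase, and TRIM28, a co-repressor, were unmarked, and WIZ was unmarked in Hs578T replicate 2. The marked partners included PTK2, the focal adhesion kinase, at 14-, 12.6- and 9.33-fold, and WASF1, a subunit of the WAVE complex, at 9.18-, 9.32- and 8.99-fold. CYFIP2, PTK2B and RET were unmarked in every list.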

How the data were processed

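H3K27ac ChIP-seq of 2 replicates each of MDA-MB-231 and Hs578T was used, grouped by sample title. The authors trimmed reads with Trimmomatic, mapped them to hg38 with Bowtie2, called peaks per library with MACS2 against input and removed blacklisted regions; versions and settings are not given in the sources used here. Each deposited peak carries a score, a fold enrichment (a ratio over local background) and −log10 p and q values, which were used within lists only. Read depth is unknown, so weak peaks may be missed, most of all in MDA-MB-231 replicate 1.

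A start site (GENCODE 44, Ensembl canonical transcript) was called marked if a peak had at least 1 bp within 1 kb of it. Peaks of the lists were merged into regions where they overlapped. All 135054 peaks lay within hg38 sequences. Promoter sequences came from RefSeq (GRCh38.p14), and words of 50 bases were counted over the hg38 primary sequence on both strands. The text names every member marked in any list, unmarked members with a peak within 5 kb, up to 3 unmarked members per subfamily farthest from a peak, and protein-coding genes in the span; other genes are examples from lists. Members and lists were chosen with earlier results of these data known. The mesenchymal and luminal markers were added after the data were seen. So were the words CGCTG, ATGTCGCT, GATGTCGC, GGTGGCGC and GCCGCTGT. No test was made: with 2 libraries a line the smallest two-sided p of an exact permutation test is 0.333. Counting was tested on simulated peaks with Python 3.11.15, numpy 2.4.6 and pandas 2.3.3.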

Additional observations from a re-analysis of the deposited data

How the results depend on the processing

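Each list's counts over members and locus were recomputed with other windows, start sites, flanks and peak filters, and the line means without each replicate. Of 81 alternative values, 15 belong to MDA-MB-231 replicate 1, which had no peak over the locus and could not move. Of the other 66, 48 stayed within 1.5 times the main value and 18 moved further. With the strongest 50% of each list, MDA-MB-231 replicate 2 marked 1 member (PCDHGB2) and had 4 peaks over the locus, and Hs578T replicate 2 had 6 peaks and 2 marked members, without PCDHB13. Without flanks the covered bases were 4759, 5321 and 5759 in the large lists (MDA-MB-231 first), and with flanks of 100 kb they were 22675, 27219 and 26862, with 15, 15 and 17 peaks. Both changes follow from the added or removed flank. Leaving out 1 replicate, the MDA-MB-231 mean ranged from 0 to 4 marked members, from 0 to 9 peaks and from 0 to 14530 bp; the 0 is MDA-MB-231 replicate 1 alone in each case. No paired analysis was possible because no result came from a test.

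Depth is unknown, so an unmarked start site is one without a called peak, and 2 libraries a line, 1 of them nearly empty, allow no comparison of the lines. The marks at PCDHB9 and PCDHB13 rest on weak peaks in partly repeated sequence, and the PCDHGB1 peak in MDA-MB-231 replicate 2, in unrepeated sequence, had no higher fold enrichment than that of PCDHB13 (4.39 against 4.43) and was also lost among the strongest 50%.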
